A study of Mus musculus with 9 samples.

Results

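The comparison set left ventricles of CaNrf2-High mice, called TG-High here, against those of non-transgenic C57BL/6J mice, called NTG. It used the raw counts of 3 TG-High and 3 NTG libraries, 6 of the 9 in the series, over all 621 mature miRNA rows, of which 509 had enough reads to test. All mice were males aged 6 months with a C57BL/6J background. The other 3 libraries came from the CaNrf2-Low line (TG-Low), which shares the controls. They were part of the same fitted model, and so of its filter, scaling and estimate of spread. They also show where TG-High stands apart from the other line. The labels give neither the promoter of the transgene nor the meaning of CaNrf2, and they leave unsaid whether the libraries of a group are different animals. The p-values therefore describe spread among these libraries alone, and that spread may be technical. In published mouse lines of this name, CaNrf2 stands for a constitutively active Nrf2. Nrf2 transcript levels were not analysed here.

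The transcription factor Nrf2 (gene Nfe2l2) is held back by Keap1 and, once released, switches on antioxidant genes through antioxidant response elements in their promoters. A miRNA is a short RNA cut from one arm (5p or 3p) of a hairpin, and it lowers the output of messenger RNAs that pair with its seed, bases 2 to 8 of the mature sequence. Hearts under strain are known for a rise of stress miRNAs such as miR-21 and for shifts in the miRNAs that lie inside myosin genes.

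The mature sequences on which the results turn are shown with the seed in capitals, 5′ to 3′, from RefSeq for GRCm38.p6, in which 544 of the 621 rows had a sequence. The first set holds abundant or strongly changed miRNAs that were higher in TG-High.
miR-21a-5p: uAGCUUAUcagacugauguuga
miR-22-3p: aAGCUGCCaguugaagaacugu
miR-148a-3p: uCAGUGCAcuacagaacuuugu
miR-671-5p: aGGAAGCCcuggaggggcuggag
miR-671-3p: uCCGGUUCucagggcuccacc
The second set holds miRNAs that differed between the transgenic lines and were lower in TG-High.
miR-499-5p: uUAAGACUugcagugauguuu
miR-451a: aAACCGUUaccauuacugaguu
miR-144-3p: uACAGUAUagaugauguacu
miR-335-5p: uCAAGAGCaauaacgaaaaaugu
The third set pairs miRNAs that share a seed, given side by side because their rows moved together or apart.
miR-192-5p: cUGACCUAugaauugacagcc
miR-215-5p: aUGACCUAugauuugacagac
miR-221-3p: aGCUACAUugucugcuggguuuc
miR-222-3p: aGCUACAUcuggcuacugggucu
miR-34a-5p: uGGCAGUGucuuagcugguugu
miR-34b-5p: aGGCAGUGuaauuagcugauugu
miR-34b-3p: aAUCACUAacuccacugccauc
miR-34c-3p: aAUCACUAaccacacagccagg
miR-92a-3p: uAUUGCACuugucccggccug
miR-25-3p: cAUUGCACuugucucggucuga
let-7d-5p: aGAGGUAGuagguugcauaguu
let-7g-5p: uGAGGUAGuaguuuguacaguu
The seeds of miR-208a-3p (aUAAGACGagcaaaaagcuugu) and miR-208b-3p (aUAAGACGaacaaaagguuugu) are identical to each other and differ from that of miR-499-5p.

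Total counts over the 621 rows ranged from 7.17 to 10.1 M in NTG (M is 1e6 counts), and were 7.04, 11.7 and 3.62 M in TG-High replicates 0, 1 and 2. Within a group, pairs of libraries differed beyond the noise of sampling (6 pairs, chi-square of 44.5 to 347 for each degree of freedom), and all were kept as replicates. The tissue label was checked against miRNAs of heart and striated muscle. The summed level of the 13 rows of that list was 22940 to 26815 counts per 1e6 (CPM, scaled by the trimmed mean of M values) in NTG and 13379 to 17174 in TG-High, carried mostly by miR-499-5p. The list's defining rows miR-1a-3p (54.4 to 142 CPM over the 6 libraries) and miR-133a-3p (0.407 to 3.83 CPM) were low for heart muscle, and both match more than 1 hairpin. Other miRNAs with several hairpins, among them miR-26a-5p and miR-30c-5p, were low too. The sources used here do not say how reads that map to several places were counted, so levels of such rows are uncertain. Of the 621 rows, 3 to 8 were at 0 in an NTG library and 42 to 55 in a TG-High library. This difference runs with the groups, so it cannot be told apart from genotype, and its part in the comparisons was not tested.

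In TG-High, 93 of 509 tested rows (18.3%) differed from NTG at an adjusted p of 0.05 (quasi-likelihood test of edgeR, Benjamini-Hochberg adjusted). Of these, 45 were higher (8.84%) and 48 lower (9.43%). The median log2 fold change of all tested rows was -0.01, with quartiles of -0.34 and 0.40, and 49.3% of rows were positive. The rows called higher held 9.76 to 11.2% of the counts of an NTG library and 16.5 to 17.8% of those of a TG-High library. The rows called lower went from 12.8 to 14.7% in NTG to 8.66 to 9.36% in TG-High. The 3 TG-High libraries lay wholly above or below the 3 NTG libraries in 200 of 509 rows (39.3%), 102 higher (20%) and 98 lower (19.3%). This held for 90 of the 93 called rows, the exceptions being miR-881-3p, miR-223-5p and miR-30d-5p.

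The share of rows called rose with abundance and with the precision that depth gives. Below 5 CPM, 14 of 169 rows were called (8.28%) at a median standard error of 0.40 on the log2 scale. From 50 to 500 CPM it was 32 of 124 (25.8%) at 0.17, and from 5000 CPM upward 10 of 23 (43.5%) at 0.12. The number of calls depended on single libraries. It was 54 without NTG replicate 0, 52 without NTG replicate 2, 37 without TG-High replicate 0 and 44 without TG-High replicate 1. Of the 93, 31 passed with each of the 6 libraries left out in turn and under each other setting in which the row was tested, the stricter thresholds of p and fold aside (miR-22-3p and miR-31-3p were not tested in 1 of the 9 settings). The 17 of these that were higher were miR-21a-5p, both arms of miR-22 and of miR-671, miR-148a-3p, miR-24-1-5p, miR-3074-1-3p, miR-23b-3p, miR-27b-5p, miR-326-3p, miR-361-3p, miR-455-5p, miR-193b-3p, miR-31-3p, miR-34c-5p and let-7f-1-3p. The 14 lower ones were miR-215-5p, miR-150-5p, miR-155-5p, both arms of miR-221, of miR-144 and of miR-335, miR-451a, miR-499-5p, miR-92a-3p, miR-200c-3p and miR-185-5p. Each of the other calls was lost in at least 1 such fit or setting, with adjusted p values up to 0.229 when a library was left out.

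**Figure D1:**
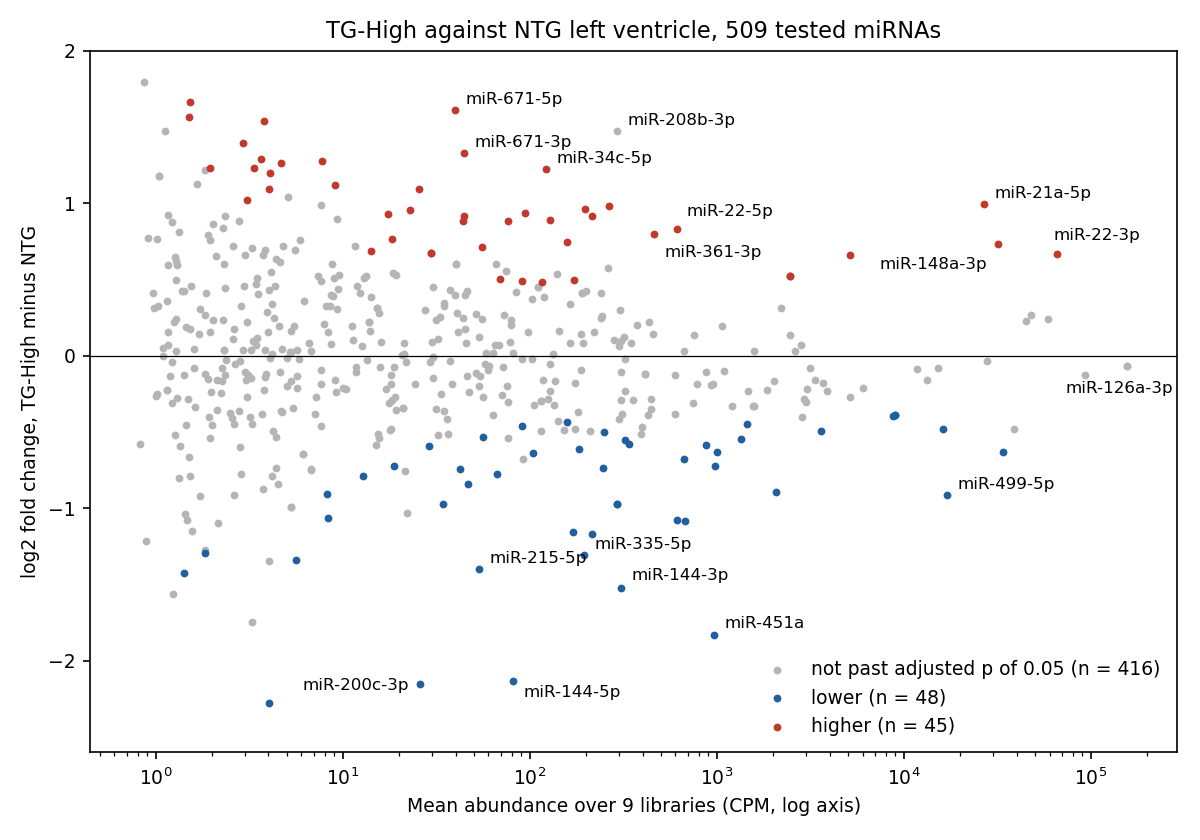
Each point is 1 of 509 tested miRNAs, with its mean abundance over 9 libraries (CPM, log axis) and its log2 fold change, TG-High minus NTG. The 45 rows called higher are red and the 48 called lower are blue; miR-21a-5p, miR-22-3p and miR-148a-3p stand above 0 at high abundance, and miR-144-5p and miR-200c-3p lie near -2.

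Among miRNAs of cardiac growth and stress, miR-21a-5p, which is induced in strained hearts and acts in fibroblasts and muscle cells, stood at 18180, 20728 and 17947 CPM in the NTG libraries and at 38597, 40591 and 34033 in TG-High. All TG-High libraries lay well above all controls, a 1.99-fold rise (log2 0.99 ± 0.11 SE, adjusted p = 0.000724 by edgeR). It took 1.71 to 2.27% of an NTG library's counts and 3.44 to 4.26% of a TG-High library's. The hairpin of miR-21a lies on chromosome 11 from 86584067 to 86584158, minus strand (GRCm38), over an exon of Vmp1.

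miR-22-3p, an abundant heart-muscle miRNA needed for hypertrophic growth in mice, measured 46067, 49721 and 48556 CPM in NTG against 80101, 65836 and 82893 in TG-High. The groups did not overlap, and the rise was 1.59-fold (log2 0.66 ± 0.11, adjusted p = 0.00275). Its other arm, miR-22-5p, rose as well, from 370, 462 and 414 CPM to 777, 684 and 757 (log2 0.83 ± 0.13, adjusted p = 0.00161). The abundant miR-148a-3p, studied for its part in lipid metabolism, went from 25749, 21411 and 25103 CPM to 44871, 35679 and 39665 (1.66-fold, log2 0.73 ± 0.12, adjusted p = 0.00249). Every TG-High library again stood above every control. In a list of miRNAs described in cardiac hypertrophy and pressure overload, 9 of 28 tested rows rose and 3 fell (42.9% called, against 18.3% of all rows), with a median log2 fold change of 0.11. The risers included both arms of miR-21a, both arms of miR-22 and miR-214-5p, while both arms of miR-221 and miR-222-3p fell. miR-21a-3p (log2 1.20) passed in 1 of the 6 edgeR fits that left out a library (adjusted p up to 0.109). miR-214-5p, made in fibroblasts, rose by 0.74 on the log2 scale (adjusted p = 0.0118), but its adjusted p reached 0.0588 when NTG replicate 0, TG-High replicate 0 or TG-High replicate 1 was left out. miR-222-3p passed in none of the 6 fits that left out a library (adjusted p up to 0.14).

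The cluster of miR-23b, miR-27b and miR-24-1 on chromosome 13 rose in 3 of its 5 tested rows, and all 5 log2 fold changes were positive. Among all tested rows, 8.84% rose and 49.3% were positive. miR-23b-3p went from 3415, 4321 and 3891 CPM in NTG to 6103, 5690 and 6615 in TG-High (log2 0.66 ± 0.14, adjusted p = 0.00874). miR-27b-5p went from 39.5, 41.0 and 44.0 to 63.7, 68.0 and 72.2 CPM (log2 0.71 ± 0.13, adjusted p = 0.00484). miR-24-1-5p measured 111, 123 and 144 CPM in NTG and 233, 233 and 272 in TG-High (log2 0.96 ± 0.15, adjusted p = 0.00195). Groups did not overlap in any of these rows. The hairpin of miR-3074-1, whose 3p arm gave 0.92, lies over that of miR-24-1 on the opposite strand, and without strand the reads of such pairs cannot be told apart. miR-27b-3p, the abundant arm of its hairpin, differed by 0.27 on the log2 scale (adjusted p = 0.105). In the paralogous cluster miR-24-2-5p rose by 0.53 (adjusted p = 0.0297; up to 0.103, and past the threshold in 2 of the 6 fits, when a library was left out), and miR-23a-3p differed by -0.16 (adjusted p = 0.485).

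Among the 17 risers that passed with every library left out, miR-671-5p had the highest fold; miR-671 is known for cutting the circular RNA Cdr1as. miR-671-5p was at 19.2, 20.4 and 16.5 CPM in NTG and at 56.4, 50.1 and 65.1 in TG-High. The 3p arm went from 24.3, 24.6 and 21.1 CPM to 61.0, 50.7 and 64.6. Both arms thus stood in all TG-High libraries above all controls, by 3.06-fold (log2 1.61 ± 0.21, adjusted p = 0.00117) and 2.51-fold (log2 1.33 ± 0.20, adjusted p = 0.00161). miR-361-3p rose from a narrow control range of 280 to 288 CPM to 548, 461 and 479 (log2 0.80 ± 0.15, adjusted p = 0.00484), while miR-361-5p differed by 0.34 (adjusted p = 0.206). miR-326-3p, from an intron of Arrb1, went from 13.3, 21.1 and 17.6 CPM to 37.8, 32.8 and 41.0 (2.14-fold, adjusted p = 0.00277). miR-193b-3p went from 15.8, 15.1 and 12.9 CPM to 31.8, 25 and 28.2 (log2 0.95, adjusted p = 0.00484).

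The miR-34 family is known as a target of p53, and its members split. miR-34c-5p measured 73.2, 94.2 and 47.9 CPM in NTG and 161, 191 and 150 in TG-High, a 2.33-fold rise without overlap (log2 1.22 ± 0.25, adjusted p = 0.0081). All 4 tested rows of the miR-34b and miR-34c cluster on chromosome 9 rose (8.84% of all tested rows rose). The other 3 were scarce. miR-34b-3p went from 3.56, 6.67 and 3.62 CPM to 9.30, 11.5 and 13.1 (log2 1.28 ± 0.29, adjusted p = 0.013), and miR-34c-3p and miR-34b-5p rose by 1.54 (adjusted p = 0.0231) and 1.23 (adjusted p = 0.0461). These 3 lost their calls when single libraries were left out, with adjusted p values up to 0.0596, 0.0885 and 0.13 in that order. All 3 were lost without NTG replicate 0 or TG-High replicate 1, and some also without NTG replicate 2, TG-High replicate 0 or TG-High replicate 2. miR-34a-5p, which is made from another locus and shares the seed GGCAGUG with miR-34b-5p, was at 132, 214 and 210 CPM in NTG and 142, 161 and 92.5 in TG-High. Its groups overlapped and its log2 fold change was -0.49 ± 0.25 (adjusted p = 0.206).

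Of the miRNAs in introns of myosin heavy chain genes (miR-208a in Myh6, miR-208b in Myh7, miR-499 in Myh7b), miR-499-5p was called. miR-499-5p fell from 21328, 19677 and 23855 CPM in NTG to 10941, 9887 and 13557 in TG-High, 1.89-fold lower without overlap (log2 -0.92 ± 0.14, adjusted p = 0.00161). miR-208a-3p was at 2444, 2429 and 2475 CPM in NTG and at 2391, 2376 and 2743 in TG-High, with overlapping groups (log2 0.03 ± 0.10, adjusted p = 0.868). miR-208b-3p, which in mice accompanies the fetal and stressed heart's Myh7, was at 31.4, 357 and 145 CPM in NTG and 421, 757 and 303 in TG-High. Controls differed widely among themselves, TG-High replicate 2 lay below NTG replicate 1, and the log2 fold change of 1.47 ± 0.66 did not pass (adjusted p = 0.15). Of the 12 tested rows of heart and striated muscle, miR-499-5p was the only one called (8.33%, against 18.3% of all rows). The median was -0.08.

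**Figure D2:**
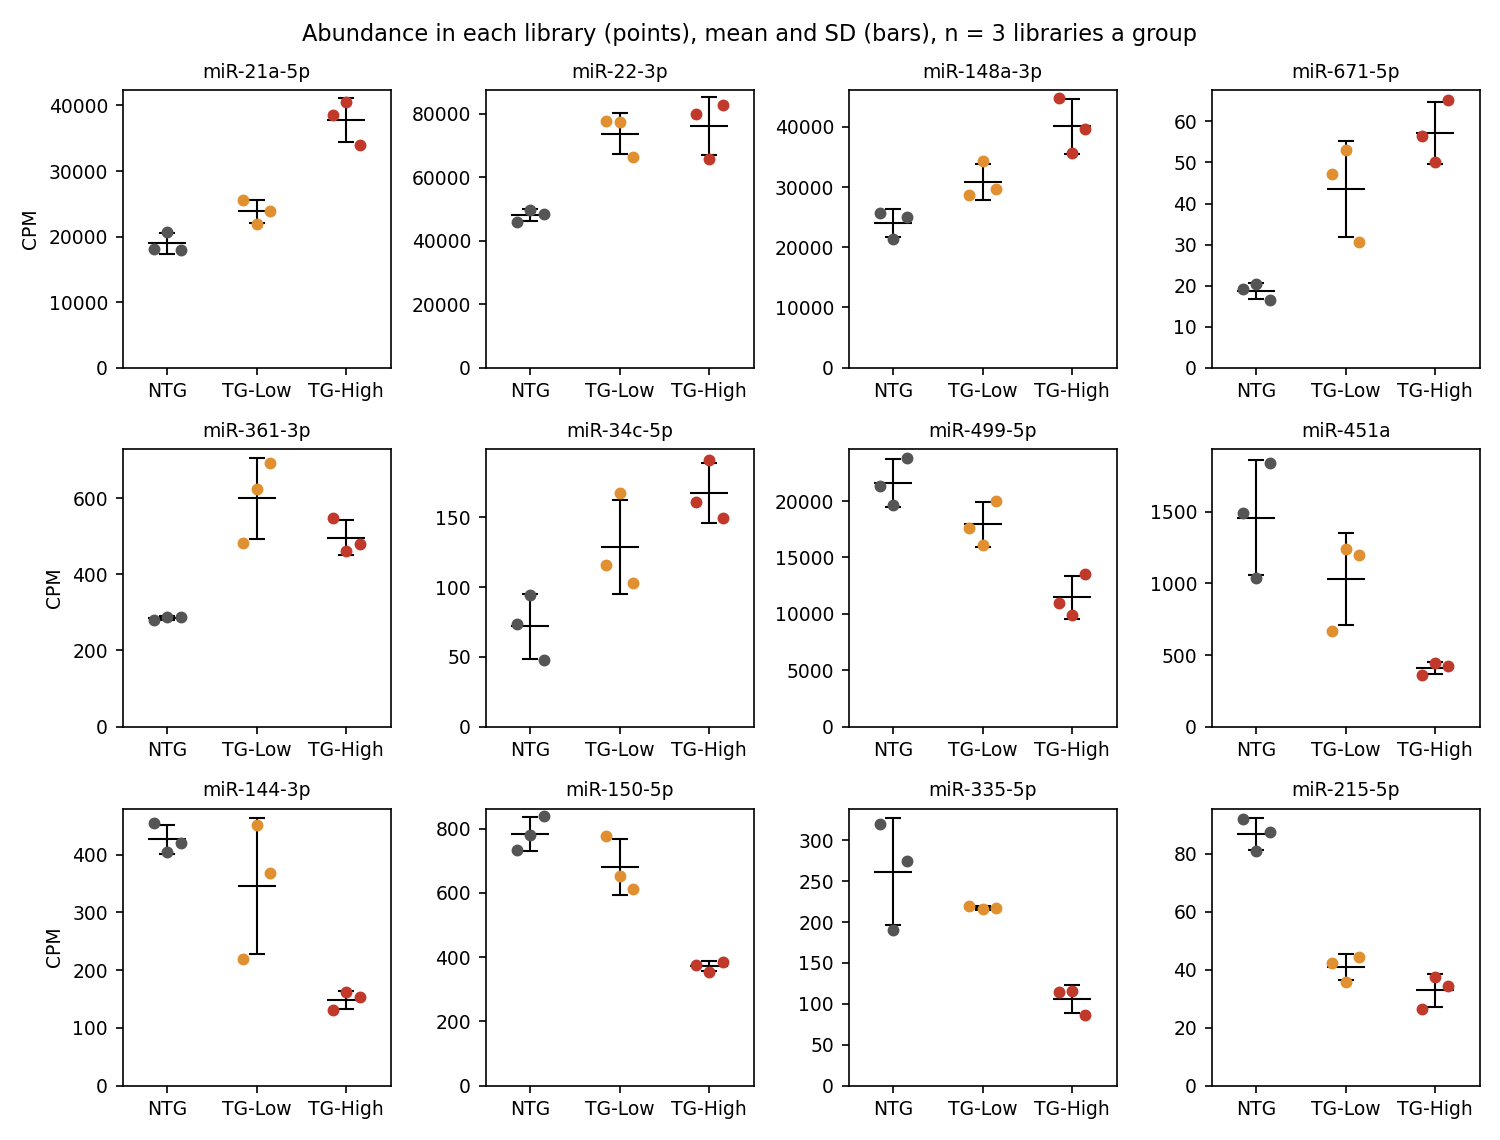
CPM of 12 miRNAs in each library of NTG, TG-Low and TG-High, 3 points a group, with the mean and SD as bars. In each of the 12 panels the TG-High points lie wholly above or below the NTG points, and miR-21a-5p reaches 34033 to 40591 CPM in TG-High against 17947 to 20728 in NTG.

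The bicistronic erythroid cluster of miR-144 and miR-451a on chromosome 11 (78073005 to 78073241, GRCm38) fell in all 3 of its tested rows. Among all tested rows, 9.43% fell. miR-451a, which matures through Ago2 without Dicer, went from 1492, 1040 and 1841 CPM to 361, 445 and 426, 3.55-fold lower (log2 -1.83 ± 0.26, adjusted p = 0.00122). miR-144-3p went from 454, 405 and 421 CPM to 131, 161 and 153, 2.87-fold lower (log2 -1.52 ± 0.23, adjusted p = 0.00155). miR-144-5p went from 151, 108 and 151 CPM to 23.3, 37.7 and 32.6, 4.38-fold lower (log2 -2.13 ± 0.30, adjusted p = 0.00122). In each row every TG-High library lay far below every control. The other erythroid markers did not pass: miR-486a-5p was at 123, 80.5 and 74.3 CPM in NTG and 114, 42.0 and 70.3 in TG-High (adjusted p = 0.825), and heart muscle makes miR-486 too. The more abundant arm, miR-486a-3p, had a log2 fold change of -0.12 and no call. The summed level of the erythroid list was 2741 to 3407 CPM in NTG and 1272 to 1759 in TG-High, with 2006 to 2947 for TG-Low. Reads of miR-486 enter this sum under near-identical rows of miR-486a and miR-486b both. Of the list's rows, the untested miR-451b had 6, 3 and 5 counts in NTG and 0 in all TG-High and TG-Low libraries, and the tested rows had counts in every library. In bulk tissue, fewer cells of a type and less RNA per cell cannot be told apart. The part of blood content in these differences was not tested.

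Leukocyte miRNAs moved in both directions. miR-150-5p, a miRNA of mature lymphocytes, fell from 733, 780 and 838 CPM to 376, 354 and 386, 2.11-fold lower (log2 -1.08 ± 0.13, adjusted p = 0.000724). miR-155-5p, which is induced in activated immune cells, fell from 325, 260 and 342 CPM to 139, 147 and 126 (log2 -1.17 ± 0.16, adjusted p = 0.00117). Neither row had overlapping groups. miR-223-5p of myeloid cells was called higher (0.93, adjusted p = 0.0492) although NTG replicate 1 at 17.6 CPM exceeded TG-High replicate 2 at 15.6, and its call was lost without NTG replicate 0, NTG replicate 2, TG-High replicate 0 or TG-High replicate 1 (adjusted p up to 0.20). The more abundant arms miR-223-3p (0.42, adjusted p = 0.177) and miR-142a-3p (0.41, adjusted p = 0.268) did not pass. Of 11 tested leukocyte rows, 3 fell and 1 rose (36.4% called, against 18.3% of all rows). The summed level was 2530 to 2765 CPM in NTG and 1954 to 2226 in TG-High. Reads of miR-142a-3p enter this sum under the near-identical row miR-142b too. Whether leukocyte content had a part in these differences was not tested.

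Of 10 tested rows of endothelial miRNAs, 6 fell (9.43% of all tested rows fell) and 4 did not pass, with a median of -0.50. miR-126a-5p and miR-126b-3p carry near-identical counts, so the 6 calls are 5 measurements, and DESeq2 called 4 of the 10 rows. miR-221-3p, which targets Kit, went from 996, 946 and 918 CPM to 468, 482 and 403, 2.11-fold lower (log2 -1.08 ± 0.15, adjusted p = 0.00122). miR-92a-3p of the miR-17-92 cluster, a brake on vessel growth, went from 1246, 1164 and 1415 CPM to 702, 763 and 856 (log2 -0.72 ± 0.12, adjusted p = 0.00277). TG-High libraries were below controls throughout both rows. The defining endothelial miRNA, miR-126a-3p, from within Egfl7, did not follow them, at 140488, 153601 and 179874 CPM in NTG and 153382, 151991 and 147601 in TG-High (log2 -0.07, adjusted p = 0.776). The list's summed level, 300859 to 383562 CPM in NTG and 311995 to 323363 in TG-High, overlapped between the groups and came mostly from miR-126, whose reads enter it under the near-identical rows miR-126a-3p and miR-126b-5p both. The calls of miR-126a-5p and of its overlapping partner miR-126b-3p (log2 -0.39, adjusted p = 0.0447) were lost under DESeq2, under upper-quartile scaling and in 5 of the 6 fits that left out a library, holding only without NTG replicate 0. Over the miR-17-92 cluster and its paralogs, 4 of 18 tested rows fell (22.2%, against 9.43% of all tested rows) and 0 rose by edgeR. The 4 included miR-20a-5p, lower by 0.67, and miR-25-3p, lower by 0.63 on the log2 scale. miR-20a-5p lost its call without TG-High replicate 0 (adjusted p = 0.0732), and miR-25-3p without TG-High replicate 0 or NTG replicate 2 (adjusted p up to 0.0808). The call of miR-106b-3p was lost with any 1 library left out (adjusted p up to 0.16).

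All 4 tested rows of miR-192, miR-194 and miR-215, miRNAs of gut, liver and kidney epithelium, fell (9.43% of all tested rows fell). miR-215-5p went from 92, 81 and 87.3 CPM to 26.5, 37.5 and 34.5, 2.64-fold lower (log2 -1.40 ± 0.17, adjusted p = 0.000724), far outside the control range. miR-192-5p, with the same seed UGACCUA, went from 1009, 984 and 1171 CPM to 713, 716 and 683 (log2 -0.58 ± 0.14, adjusted p = 0.0191). These rows come from separate loci, with the hairpin of miR-215 on chromosome 1 from 185313581 to 185313692 and that of miR-192 on chromosome 19 from 6264844 to 6264932 (GRCm38). miR-192-5p lost its call without NTG replicate 2, TG-High replicate 0 or TG-High replicate 2 (adjusted p up to 0.0831). miR-194-5p (-1.07, adjusted p = 0.0297), which can arise from both loci, lost it without NTG replicates 0 or 2 or TG-High replicates 0 or 1 (adjusted p up to 0.133). miR-194-2-3p (-1.29, adjusted p = 0.0395) held in 1 of the 6 fits that left out a library, only without NTG replicate 0, and was lost under DESeq2 and upper-quartile scaling, so that DESeq2 called 3 of the 4 rows. miR-200c-3p, an epithelial miRNA, fell from 51.3, 40.6 and 32.7 CPM to 8.30, 9.45 and 10.4, 4.44-fold lower (log2 -2.15 ± 0.40, adjusted p = 0.00484). The epithelial and neural markers summed to 310 to 395 CPM in NTG and 200 to 235 in TG-High, with 259 to 526 for TG-Low, and the part of non-cardiac tissue was not tested. Over the 9 tested rows of that list, 2 fell (miR-200c-3p and miR-203-3p) and 1 rose (33.3% called, against 18.3% of all rows). The call of miR-203-3p held in 1 of the 6 fits that left out a library (adjusted p up to 0.112). The riser was miR-96-5p, at 1.23, 2.93 and 2.17 CPM in NTG and 4.87, 5.21 and 5.74 in TG-High (log2 1.29, adjusted p = 0.0144), which lost its call without TG-High replicate 1 (adjusted p = 0.0574). Its cluster partners miR-182-5p and miR-183-5p differed by 0.51 and 0.29 and did not pass.

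Both arms of miR-335, which lies in an intron of the imprinted gene Mest on chromosome 6 (30741299 to 30741396, plus strand, GRCm38), fell. The 5p arm went from 319, 191 and 274 CPM to 115, 116 and 85.9 (log2 -1.31 ± 0.19, adjusted p = 0.00155). The 3p arm went from 213, 200 and 266 CPM to 94.0, 100.4 and 111 (log2 -1.15 ± 0.18, adjusted p = 0.00161). The arms fell by like amounts, and neither overlapped with NTG. In the imprinted Dlk1-Dio3 cluster on chromosome 12, 6 of 50 tested rows rose (12%, against 8.84% of all tested rows) and 0 fell by edgeR. Of the 50 log2 fold changes, 44 were positive (49.3% of all tested rows were), with a median of 0.43. miR-434-5p, for example, went from 98.0, 87.6 and 85.2 CPM to 163, 170 and 169 (log2 0.89, adjusted p = 0.0141), though without TG-High replicate 1 its adjusted p was 0.051. It was the steadiest of the 6: miR-136-5p, miR-3071-3p and miR-376b-5p each passed in 1 of the 6 fits that left out a library, and miR-381-3p and miR-377-3p in 0 by edgeR (adjusted p up to 0.133). TG-Low replicate 2 lay low for this cluster, with a summed level of 783 CPM against 1613 to 1786 in the other TG-Low libraries and 1590 to 1732 in TG-High. The called rows miR-136-5p and miR-3071-3p carry the same counts, their hairpins lying over each other on either strand, so the 6 rows hold 5 separate measurements, and 4 such pairs stand among the 50.

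**Figure D3:**
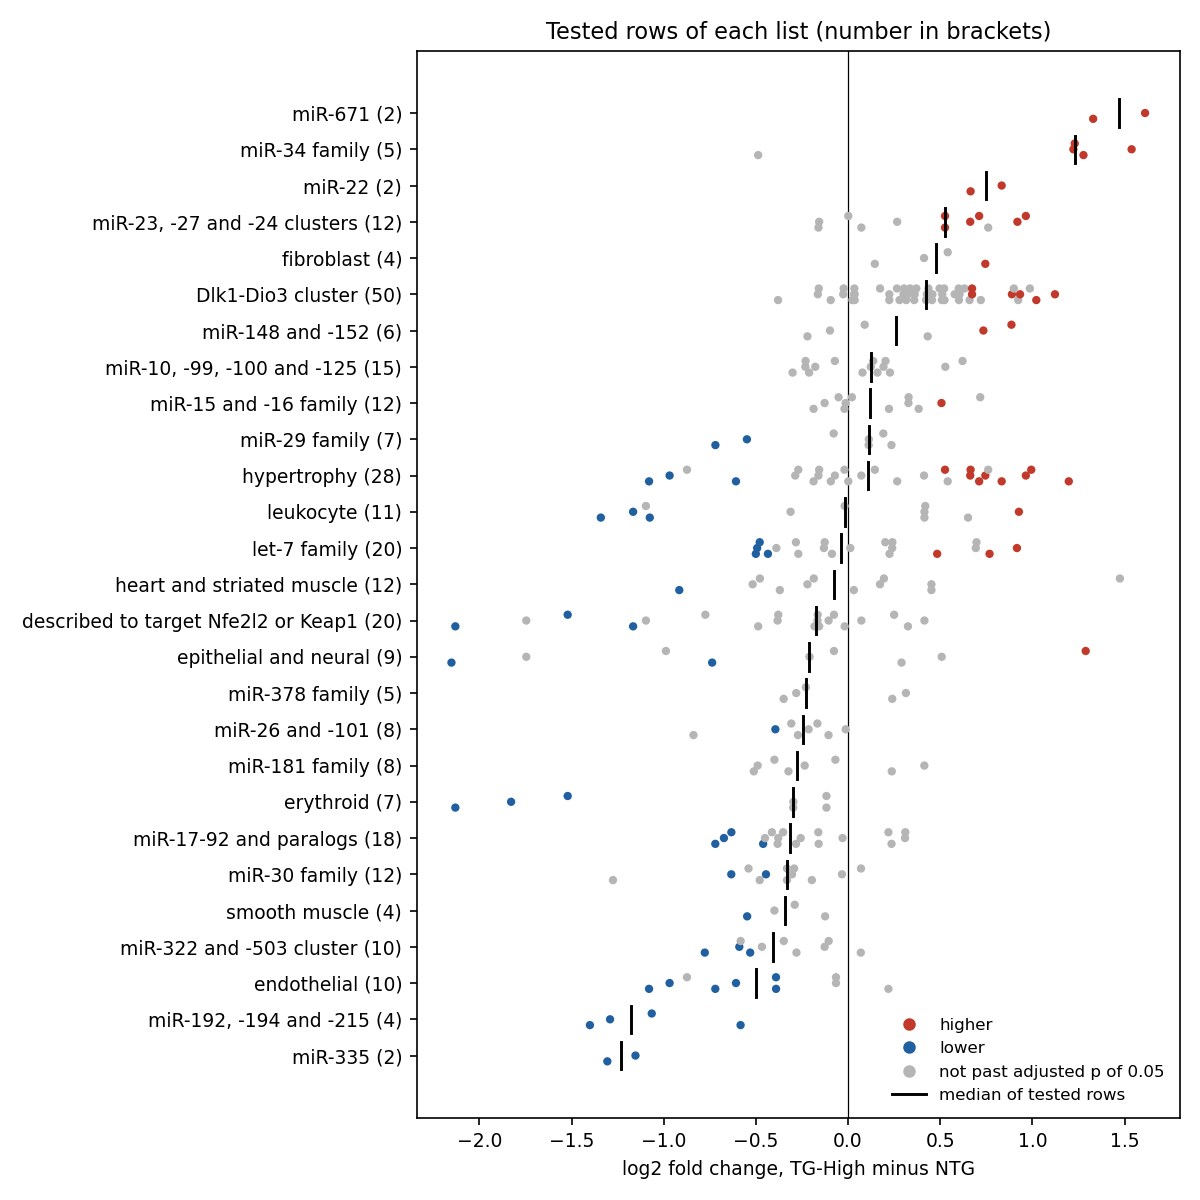
Log2 fold changes, TG-High minus NTG, of the tested rows in each family, cluster or marker list, with the list's median as a black bar. The miR-34 family has 4 red points and 1 grey point at -0.49, and all 4 points of miR-192, miR-194 and miR-215 are blue.

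Families described as acting in matrix, growth or oxygen sensing had from 0 to 30% of their tested rows called, against 18.3% of all tested rows. Of 7 tested miR-29 rows, which are described as targeting collagen transcripts, miR-29c-3p fell (-0.55, adjusted p = 0.0272) and so did miR-29b-2-5p (-0.72, adjusted p = 0.0191), while miR-29a-3p had -0.08 (adjusted p = 0.687). With a library left out, the call of miR-29c-3p held only without NTG replicate 0 (adjusted p up to 0.135 otherwise) and that of miR-29b-2-5p only without NTG replicate 1 (up to 0.132). Of 20 tested rows described as targeting Nfe2l2 or Keap1, 3 fell (15%, against 9.43% of all tested rows) and 0 rose by edgeR. The 3 were both arms of miR-144 and miR-155-5p, and the list's median was -0.17. edgeR called 0 of 2 rows of the hypoxia miRNA miR-210, 0 of 4 of miR-132 and miR-212, 0 of 5 of miR-378, 0 of 8 of miR-181 and 0 of 15 of miR-10, miR-99, miR-100 and miR-125. With an unadjusted edgeR p under 0.05 there were 1, 0, 0, 2 and 0, and DESeq2 called 0 in each. miR-210-3p was at 143, 175 and 203 CPM in NTG and 131, 142 and 115 in TG-High (log2 -0.43, adjusted p = 0.101). In the growth-restraining miR-322 and miR-503 cluster 3 of 10 tested rows fell (median -0.41), and in the miR-30 family 2 of 12 (median -0.33). In the miR-15 and miR-16 family 1 of 12 rose (miR-16-1-3p; median 0.12). Of all tested rows, 9.43% fell and 8.84% rose. Of the markers of supporting cells, 1 of 4 smooth muscle rows fell (miR-145a-3p, -0.55, adjusted p = 0.0311) and 1 of 4 fibroblast rows rose (miR-214-5p). Summed levels were 82474 to 106215 CPM in NTG against 82417 to 95706 in TG-High for smooth muscle, and 706 to 882 against 804 to 1066 for fibroblasts, with overlapping groups in both. The calls in the miR-322 and miR-30 lists and that of miR-145a-3p were lost in at least 4 of the 6 fits that left out a library (adjusted p up to 0.22). The call of miR-16-1-3p held in 1 of those 6 fits (adjusted p up to 0.229).

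The let-7 family, which restrains proliferation, measured differently by arm. Among 10 rows of the 5p arm, counting let-7j with them, 4 fell and 8 were negative (median -0.34). Among 10 rows of the 3p arm, 3 rose and 8 were positive (median 0.36). Of all tested rows, 9.43% fell, 8.84% rose and 49.3% were positive. let-7g-5p went from 20945, 18386 and 18800 CPM to 15327, 13520 and 12850 (log2 -0.48, adjusted p = 0.0123), and let-7d-5p from 4287, 4263 and 4290 to 3035, 2980 and 3108 (log2 -0.49, adjusted p = 0.00918). The scarce let-7f-1-3p went the other way, from 27.1, 34.6 and 26.7 CPM to 66.6, 53.6 and 46.5 (log2 0.92, adjusted p = 0.00668). Groups were separate in these 3 rows. let-7g-5p lost its call without TG-High replicate 2 (adjusted p = 0.0659) and let-7d-5p without TG-High replicate 0 (adjusted p = 0.0776). Of the other 5p calls, let-7j passed in 2 of the 6 fits that left out a library and let-7c-5p in 0 by edgeR (adjusted p up to 0.0919 and 0.196). Of the 3p calls, let-7c-1-3p was lost without TG-High replicate 1 (adjusted p = 0.0601) and let-7i-3p in 4 of the 6 (up to 0.0885).

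Across 149 hairpins with both arms tested, both arms were called in 11, with 6 higher in both, 5 lower in both and 0 called in opposite directions. A limma test of the log2 ratio of the arms, a model chosen after seeing the data, called 10 hairpins (6.71%). In miR-455, the 5p arm rose from 162, 208 and 166 CPM to 440, 340 and 280, while the 3p arm was at 157, 175 and 170 and then 183, 177 and 171. The 5p arm thus left the control range as the 3p arm moved little, and the log2 ratio changed by 0.88 (adjusted p = 0.00837 by limma). In miR-29c the ratio changed by 0.77 (adjusted p = 0.00837), with the 3p arm at 300 to 404 CPM in NTG and 240 to 262 in TG-High and the 5p arm at 61.8 to 72.3 and 73.7 to 81.4. These 2 hairpins passed with each library left out. The other 8 (miR-425, miR-152, miR-434, miR-144, miR-31, miR-185, let-7g and let-7i) passed in 1 to 3 of the 6 such fits. With other settings, 23 hairpins were called at a pseudocount of 2 CPM, 20 where both arms had at least 5 CPM and 30 with the replicate block. The count of hairpins was 2 without NTG replicate 0, 4 without NTG replicate 2, 3 without TG-High replicate 0, 2 without TG-High replicate 1 and 18 without NTG replicate 1.

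**Figure D4:**
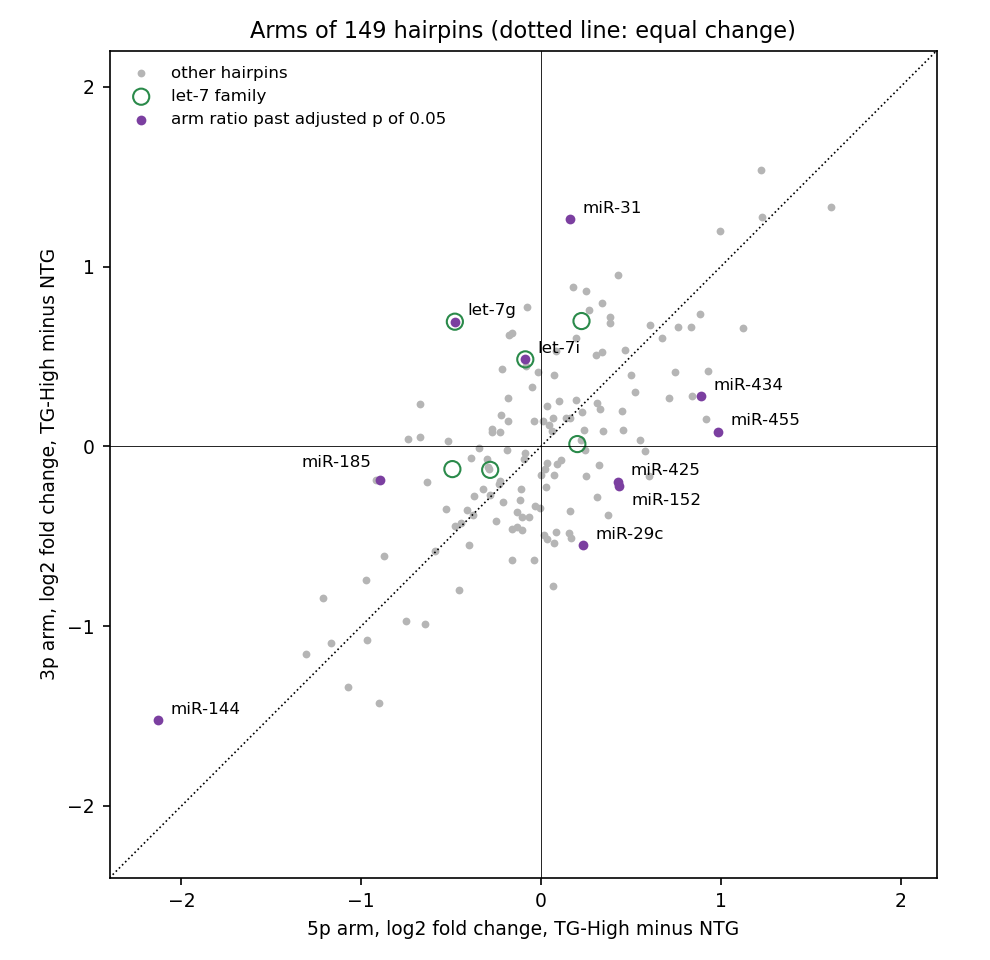
Log2 fold change, TG-High minus NTG, of the 5p arm (x axis) and the 3p arm (y axis) of 149 hairpins, with the 10 whose arm ratio passed an adjusted p of 0.05 in purple and let-7 hairpins circled. miR-455 lies below the dotted line of equal change and miR-31 and let-7g above it.

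Rows that share a seed were compared next. Of 44 seed groups with at least 2 tested rows, 17 had a called row, 6 had at least 2, and 0 had calls in both directions by edgeR. In the seed group GAGGUAG of let-7, 3 of 9 tested rows fell (9.43% of all tested rows fell) and 7 were negative. Among hairpins within 10 kb of each other on 1 strand, 14 clusters had at least 2 called rows. Of these, 2 had calls in both directions, and both hold a let-7 hairpin.

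TG-High was set against TG-Low to ask where the lines differ. In a direct test, 7 of 509 rows passed (1.38%), 1 higher in TG-High (0.196%) and 6 lower (1.18%), and 41 had an unadjusted p under 0.05. DESeq2 called 12 rows, and edgeR 25 with no filter on low counts and 2 at a minimum count of 50. miR-21a-5p was at 25570, 21969 and 23965 CPM in TG-Low, between the NTG and TG-High libraries, and TG-High exceeded TG-Low by 0.66 ± 0.11 on the log2 scale (adjusted p = 0.0206). miR-499-5p was at 17638, 16102 and 20036 CPM in TG-Low (difference -0.65 ± 0.14, adjusted p = 0.0492). miR-150-5p was at 777, 653 and 611 CPM in TG-Low (-0.87 ± 0.13, adjusted p = 0.0153). All TG-High libraries lay beyond all TG-Low libraries in these rows, which the test had picked from the same libraries.

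miR-451a was at 664, 1241 and 1195 CPM in TG-Low (difference -1.33 ± 0.25, adjusted p = 0.0254). miR-144-3p was at 219, 451 and 368 CPM (-1.22 ± 0.22, adjusted p = 0.0254). The arms of miR-335 were at 216 to 219 CPM for 5p (-1.04 ± 0.19, adjusted p = 0.0254) and 221, 176 and 147 for 3p (-0.83 ± 0.18, adjusted p = 0.0492). TG-Low replicate 0 was the lowest of its group for miR-451a and miR-144-3p, and still above every TG-High library. The 7 calls were sensitive to single libraries. Without TG-High replicate 0, edgeR called 0 rows (DESeq2 called 8, and 31 had an unadjusted edgeR p under 0.05), without TG-High replicate 1 it called 2, and without TG-High replicate 2 it called 4. miR-150-5p passed in 5 of the 6 fits that left out a library of these lines, miR-21a-5p in 3, and miR-335-5p in 0, with adjusted p values from 0.0526 to 0.159.

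For all but 7 of the 93 rows called in TG-High against NTG, the direct test did not tell the lines apart. miR-22-3p was at 77645, 77307 and 66283 CPM in TG-Low, and the difference between the lines was 0.05 ± 0.11 (adjusted p = 0.935). miR-671-5p was at 47.2, 53.1 and 30.6 CPM in TG-Low, with TG-Low replicate 1 inside the TG-High range (difference 0.38 ± 0.21, adjusted p = 0.622). miR-361-3p was at 482, 623 and 692 CPM in TG-Low, and its difference of -0.27 was of the opposite sign to its rise over NTG (adjusted p = 0.622). miR-215-5p was at 42.3, 35.7 and 44.4 CPM in TG-Low (difference -0.31 ± 0.17, adjusted p = 0.622). A p above the threshold does not show that the lines act alike.

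Promoters of genes that host a miRNA were searched for the core of the antioxidant response element, TGACNNNGC on either strand, from 250 bases before to 50 after the start (RefSeq, GRCm38.p6). It was in 3781 of 27025 promoters of all genes (14%), in 3 of 16 hosts of rows that rose (18.8%; Focad, Pdlim7 and Vmp1), in 2 of 17 hosts of rows that fell (11.8%; Egfl7 and Myh7b) and in 26 of 139 hosts of rows not called (18.7%). A match describes the letters in this window only.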

How the data were processed

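Per the labels, total RNA of left ventricle was made into libraries with the TruSeq RNA kit. The authors' deposited values used here are raw read counts per mature miRNA and library, not normalized. Per the submitters' processing notes, the tools included DESeq2 1.18.1, Novoalign, SAMtools, Trim Galore 0.4.0 and bcl2fastq 1.8.4, with build mm10 (GRCm38). The sources used here give neither their order nor how strand and multiply mapped reads were handled. The authors' deposited fold changes and p-values were not used.

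The main test was edgeR 4.0.16's quasi-likelihood test (limma 3.58.1, R 4.3.3) on 509 rows kept by filterByExpr (minimum count 10; 112 left out), with TMM scaling and 1 model of 3 groups over all 9 libraries, Benjamini-Hochberg adjustment over all tested rows and a threshold of 0.05. SE is the absolute log2 fold change over the square root of F. Arm ratios, added after seeing the data, used limma on log2 CPM plus 0.5. DESeq2 1.42.0 was an alternative. Fits were tested on simulated data. Hairpin positions come from GENCODE M21 (595 rows matched by name), and positions and plots were made in Python 3.11.15.

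Rows eligible for naming were the 12 of smallest p per direction, list members past the threshold and the 5 most abundant. Also eligible were a fixed set of heart, blood and stress miRNAs and the rows that differed between the lines. So were partner arms and seed, cluster or family members. Some list members past the threshold, among them miR-150-3p, miR-148a-5p and miR-101a-3p, were counted in their lists without being named in the results. miR-881-3p, miR-185-5p, and miR-7688-5p in the closing section, were named after their values were seen, as were the hairpins of the arm ratio. The comparison, members and lists were chosen with earlier results of these data known.

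Correlations of deviations were -0.23 to 0.06 between same-numbered NTG and TG-High libraries, and -0.096 to 0.23 between those of other numbers. Over all groups, same-numbered pairs had a median of 0.064 and the other pairs -0.0071. With 3 libraries a group these values cannot show whether the numbers pair the samples, and the main test took the libraries as unpaired.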

Additional observations from a re-analysis of the deposited data

Results flagged for a closer look

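The rows that differed between TG-High and TG-Low by edgeR's direct test are listed because their values differed between 2 groups set against the same controls. What else differs between the lines was not tested. TG-High minus TG-Low log2 differences were 0.66 for miR-21a-5p, -0.65 for miR-499-5p, -0.87 for miR-150-5p, -1.22 for miR-144-3p, -1.33 for miR-451a, -1.04 for miR-335-5p and -0.83 for miR-335-3p. In each of the 7, all 3 TG-High libraries lay beyond all 3 TG-Low libraries. The test had picked these rows from the same libraries, so the separation adds no support. The share of all rows that separate the lines is not given here. Over the 6 fits that left out 1 library of these lines, adjusted p values ran from 0.0124 to 0.0784 for miR-150-5p, from 0.0219 to 0.0941 for miR-21a-5p and from 0.0284 to 0.27 for miR-499-5p. For miR-144-3p they ran from 0.00197 to 0.227, for miR-451a from 0.00442 to 0.227, for miR-335-3p from 0.0219 to 0.27 and for miR-335-5p from 0.0526 to 0.159.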

How the results depend on the processing

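TG-High against NTG called 93 rows, and DESeq2 size factors (93), upper-quartile scaling (83), DESeq2's Wald test (98), no filter (110), a minimum count of 50 (72), no 5 most abundant rows (91), 1 row per near-identical set (90) and the 6 libraries alone (105) kept the count within 1.5 times. The replicate block gave 75 calls, and 6 for TG-High against TG-Low. It models the replicate numbers, and whether these pair the samples is not known. Leaving out 1 library gave 37 to 88 calls. An adjusted p of 0.01 left 33 and a 2-fold minimum 32. Upper-quartile scaling split the calls into 48 higher and 35 lower against 45 and 48. TG-High against TG-Low called 7 rows, 12 by DESeq2, 25 with no filter, 2 at a minimum count of 50, 0 at an adjusted p of 0.01 (edgeR, 41 at an unadjusted p under 0.05), 3 at 2-fold, and 0 to 8 with 1 library left out. Arm ratios called 10 hairpins, 23 at a pseudocount of 2 CPM, 20 with both arms at 5 CPM or more, 30 with the replicate block, and 2 to 18 with 1 library left out. The cause was not tested. Signs turned only in rows without a call. miR-126a-3p and miR-126b-5p (both -0.07) had 0.035 at a minimum count of 50 and ranged from -0.15 to 0.046 with 1 library left out. miR-133a-3p (0.17) was -0.06 without NTG replicate 0, and ranged from -0.68 without TG-High replicate 2 to 0.83. miR-29a-3p (-0.08) had 0.021 at a minimum count of 50 and 0.0013 without TG-High replicate 0, and ranged from -0.16 to 0.029. Over the named rows and settings, 1034 kept their direction and side of the threshold, 228 fell short of it and 2 newly passed. The median of all rows moved by under 0.1 between scalings (-0.02 to 0.03). Depth limits the scarce rows most: TG-High replicate 2 had 3.62 M counts.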

Other observations

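Rows at 0 were more frequent in the transgenic libraries than in the controls. Of the 621 rows, 3 to 8 were at 0 in an NTG library and 42 to 55 in a TG-High library, and the deepest TG-High library (replicate 1, 11.7 M counts) still had 42. 41 rows were at 0 in all 3 TG-High libraries, 35 of them also in all 3 TG-Low libraries, and 32 had a count in every NTG library. Their highest NTG count was 11. None of the 41 passed the filter, so they entered no test of the main fit. The setting with no filter on low counts did include them. A count of 0 over the 3 TG-High libraries allows up to 0.134 CPM (3 counts, counting error only). miR-7688-5p was at 0 in NTG replicate 0 and TG-High replicate 1, with 25 to 82 counts in the other libraries of these groups.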
